A study of Mus musculus with 12 samples.

Results

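The 10 genes described here encode the receptors, the surface enzyme and the channel of extracellular ATP and adenosine signalling: the ATP-gated channels P2rx4 and P2rx7, the G protein-coupled nucleotide receptors P2ry2, P2ry6 and P2ry14, the adenosine receptors Adora2a, Adora2b and Adora3, the ectonucleotidase Entpd1 and the pannexin channel Panx1. They were taken by symbol from a table of 55335 mouse genes, where all 10 symbols were found. The set was chosen with earlier results of these data known. The 12 RNA-seq libraries came from BMDMs (bone marrow-derived macrophages), adherent macrophages grown from flushed mouse bone marrow with macrophage colony-stimulating factor. Wild-type and Nlrp3-/- cells were each sequenced in 3 control and 3 LPS+ATP libraries; control cells were not stimulated, and the others received lipopolysaccharide (LPS) for 4 hours and then ATP for 30 minutes per the labels; the study's methods describe a longer exposure to each. Nlrp3-/- mice lack the sensor protein of the NLRP3 inflammasome in all cells, and per the study's methods they came from another supplier than the wild-type C57BL/6 mice and were not described as littermates. The age of the mice that gave these libraries is not in the labels, though the study's methods state an age for the C57BL/6 mice used to make BMDMs.

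ATP is kept inside healthy cells and reaches the outside through pannexin and other channels or when cells are damaged. Outside, it opens P2X channels and activates P2Y receptors, while CD39, the product of Entpd1, and CD73, the product of Nt5e, break it down to adenosine. Adenosine acts on a second family of receptors, of which A2a and A2b raise cyclic AMP and are known to dampen macrophage activation, and P2X7, the product of P2rx7, is the channel through which ATP triggers the NLRP3 inflammasome.

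Nlrp3 itself was at 9.24, 9.71 and 10.1 FPKM (fragment counts divided by gene length and by library depth) in wild-type control libraries and at 32.1, 33.02 and 33.6 FPKM in wild-type LPS+ATP libraries, and it was listed at 0 in all 6 Nlrp3-/- libraries. Library totals ran from 283278 to 299393 FPKM and the relative depth from 1 to 1.22. This depth was estimated from the most frequent ratio of low values between each library and wild-type control replicate 1. FPKM gives no number of reads. Genotype moved together with sex and with a substrain gene: Xist was at most 0.0416 FPKM in wild-type libraries and at least 32.8 FPKM in Nlrp3-/- libraries, the Y-linked Ddx3y, Eif2s3y, Kdm5d and Uty were at 0 in all Nlrp3-/- libraries only, and Nnt, which is partly deleted in the C57BL/6J substrain, was at 9.38 ± 1.47 (SD, n = 3) FPKM in wild-type control and 1.16 ± 0.323 (SD, n = 3) FPKM in Nlrp3-/- control libraries. The loss of Nlrp3, the sex and the origin of the mice therefore cannot be told apart here. All 6 macrophage markers examined were above 1 FPKM in every library, and their summed level ran from 2144 to 2207 FPKM in wild-type control, 1798 to 1834 in wild-type LPS+ATP, 1424 to 1444 in Nlrp3-/- control and 1368 to 1387 in Nlrp3-/- LPS+ATP libraries. Cd68 was the largest part of this sum in every group, and Itgam entered it as 2 gene entries. Not every marker was lower in Nlrp3-/- libraries: Csf1r with LPS+ATP was at 178 FPKM in wild-type and 176 in Nlrp3-/- libraries. Mertk in control was at 32.4 and 34.1 FPKM. The 5 fibroblast markers summed to 157 to 161, 180 to 183, 1164 to 1180 and 890 to 905 FPKM in the same order of groups, and the 6 neutrophil markers to 229 to 261, 91.0 to 107, 1366 to 1414 and 415 to 442 FPKM. The 4 megakaryocyte markers summed to 238 to 245, 300 to 305, 389 to 409 and 284 to 293 FPKM and the 4 endothelial markers to 4.33 to 5.10, 4.82 to 5.34, 10.7 to 12.3 and 8.17 to 8.89 FPKM. Mast cell markers summed to at most 3.83 FPKM, with Mcpt4 and Tpsb2 at 0 in every library, and T and B cell markers to at most 1.91 FPKM.

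The promoters of 3 genes that changed with stimulation are shown, each as the 250 bases before a transcription start, read 5′ to 3′ on the gene's own strand from RefSeq on GRCm38.p6. Adora2b is shown because its induction differed between genotypes, P2rx7 because its first start site holds an AP-1 motif, and Entpd1 because both of its start sites hold a part of the cyclic AMP response element (CRE). The other P2rx7 start site held none of the searched motifs and is not shown. Capitals mark a searched motif.
Adora2b, chr11:62248734-62248983, plus strand: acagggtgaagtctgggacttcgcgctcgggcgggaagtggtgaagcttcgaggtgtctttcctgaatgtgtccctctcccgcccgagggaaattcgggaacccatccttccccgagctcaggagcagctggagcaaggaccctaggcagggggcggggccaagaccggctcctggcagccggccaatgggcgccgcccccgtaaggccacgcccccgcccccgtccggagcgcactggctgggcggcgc
P2rx7, start site 1, chr5:122643677-122643926, plus strand: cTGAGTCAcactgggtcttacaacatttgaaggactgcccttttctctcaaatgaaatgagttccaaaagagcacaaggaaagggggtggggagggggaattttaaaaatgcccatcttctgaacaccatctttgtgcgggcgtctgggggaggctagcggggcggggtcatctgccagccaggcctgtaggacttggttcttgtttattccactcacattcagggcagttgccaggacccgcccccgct
Entpd1, start site 1, chr19:40612116-40612365, plus strand: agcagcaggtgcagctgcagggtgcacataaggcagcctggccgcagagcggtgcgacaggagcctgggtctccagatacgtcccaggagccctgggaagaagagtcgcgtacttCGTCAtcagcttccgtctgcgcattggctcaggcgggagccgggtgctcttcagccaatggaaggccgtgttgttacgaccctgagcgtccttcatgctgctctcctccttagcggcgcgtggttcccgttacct
Entpd1, start site 2, chr19:40659520-40659769, plus strand: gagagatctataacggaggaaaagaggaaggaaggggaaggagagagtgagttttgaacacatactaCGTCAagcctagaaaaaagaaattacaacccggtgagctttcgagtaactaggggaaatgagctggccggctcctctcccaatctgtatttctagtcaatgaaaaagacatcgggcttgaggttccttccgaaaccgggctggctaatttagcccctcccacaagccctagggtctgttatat
The letters searched on both strands were the CRE TGACGTCA, its part TGACG, which lies inside the CRE, the AP-1 motif TGANTCA, and the HIF motif ACGTG, which can overlap the CRE part; the NF-kB motif was searched too. Of 32817 RefSeq promoters, each read over the same 250 bases before the start, 1.55% held the CRE, 17.7% its part, 6.75% the AP-1 motif, 16.6% the HIF motif and 7.25% the NF-kB motif. RefSeq gave 14 promoters for 8 of the 10 genes, and none was given for Adora2a and P2ry6. Among the 14, the CRE part was in 4 (P2rx4, Panx1 and both of Entpd1), AP-1 in 4 (start site 1 of P2rx7, Adora3 and 2 start sites of P2ry14), the HIF motif in 1 start site of P2ry2, and the CRE and the NF-kB motif in 0. In the Adora2b window none of the searched letters was found. A match describes the letters and not a bound site, and which start site these cells used was not measured.

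The levels differed widely between the 10 genes, and stimulation changed their order. In wild-type control libraries P2ry6, at 44.8 ± 1.45 FPKM (SD, n = 3), and Entpd1, at 43.3 ± 3.69 FPKM (SD, n = 3), were highest and overlapped. They were followed by P2rx4, P2rx7, Panx1 and P2ry2, each apart from the next, then by P2ry14 and Adora2b, which overlapped, and by Adora2a and Adora3, which overlapped below 1 FPKM. In wild-type LPS+ATP libraries Adora2b led the order at 33.3 ± 1.71 FPKM (SD, n = 3), above P2rx4, Adora2a and P2ry6, which overlapped one another, while Entpd1 had moved to the sixth place. In Nlrp3-/- control libraries the order began again with P2ry6 and Entpd1, which were apart there, and Adora2a stood above P2ry14 and Adora2b. In Nlrp3-/- LPS+ATP libraries Adora2a led at 27.9 ± 0.725 FPKM (SD, n = 3), P2rx4 and P2ry6 overlapped below it, and Adora2b, in the fifth place, overlapped P2ry2.

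**Figure D1:**
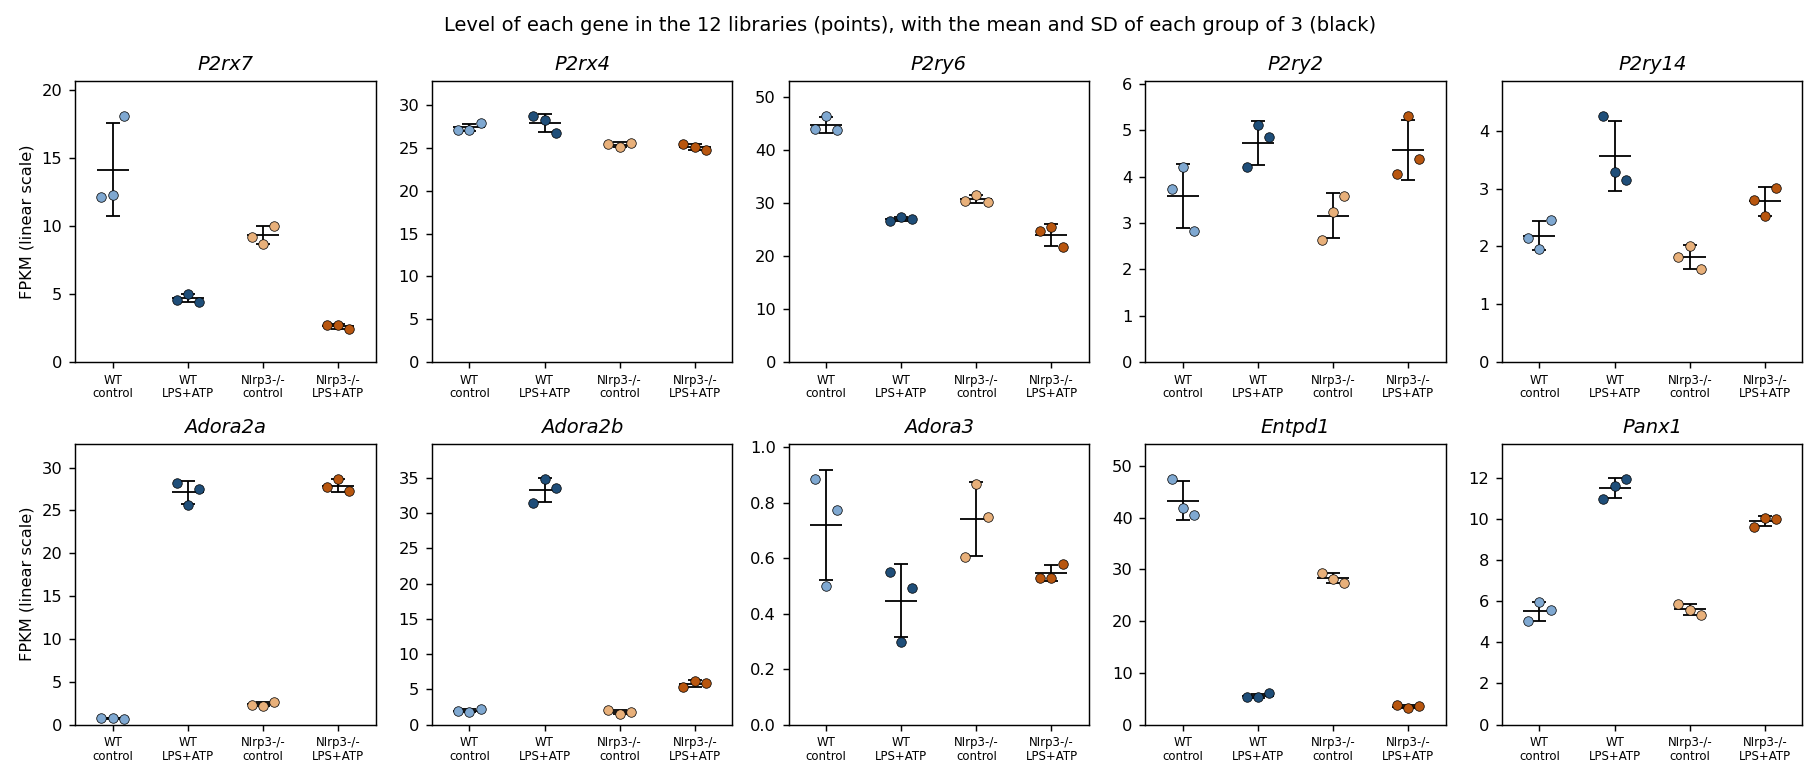
FPKM (linear axis from 0) of each of the 10 genes in the 12 libraries, with black bars for the mean and SD of each group of 3. Adora2a rose to a like level in both genotypes, Adora2b with LPS+ATP reached 31.5 to 34.9 FPKM in wild-type but 5.28 to 6.25 FPKM in Nlrp3-/- libraries, and Entpd1 and P2rx7 fell in both genotypes.

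Differences were tested with limma on log2(FPKM + 1) over the 12622 genes that had at least 1 FPKM in at least 3 libraries, with Benjamini-Hochberg adjustment over all of them, and a gene was called at an adjusted p under 0.05 and a difference of at least 1 on that scale. Of the 10 genes, 9 were tested and Adora3 was not. All differences below are on this scale, where genes of low FPKM appear to change less than in FPKM itself. Nothing in the labels says that the 3 libraries of a group came from separate animals or cultures, so the p-values measure the spread between these libraries, which may be technical.

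LPS+ATP raised Adora2a and Adora2b and lowered Entpd1 and P2rx7 in wild-type cells, and the same 4 genes were called in Nlrp3-/- cells. In wild-type cells 2 of 9 were called higher and 2 of 9 lower, where 8.25% of all tested genes were called higher and 11.2% lower. In Nlrp3-/- cells the counts were again 2 and 2 of 9, beside 6.64% and 8.21% of all tested genes. At an adjusted p under 0.05 and any size, 5 rose and 3 fell in each genotype, beside 76.4% of all tested genes in wild-type and 74.3% in Nlrp3-/- cells in either direction. The median difference of the 9 was 0.33 in wild-type and 0.43 in Nlrp3-/- cells, while that of all tested genes was -0.25 and -0.24. Scaling the libraries by the median ratio moved the all-gene median by 0.25 and 0.24, and turned the split of all called genes from 1041 higher and 1411 lower to 1406 and 872 in wild-type and from 838 and 1036 to 1094 and 602 in Nlrp3-/- cells. In bulk RNA, a change in the share of cells that express a gene and a change in RNA per cell cannot be told apart.

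Between genotypes, none of the 9 tested genes was called in control cells, and Adora2b was called after stimulation. In control cells 0 of 9 were called higher or lower by limma in Nlrp3-/-, where 6.02% of all tested genes were called higher and 0.689% lower, and at an adjusted p under 0.05 of any size 1 was higher and 4 lower, beside 47.8% of all tested genes. With LPS+ATP, 0 of 9 were called higher, beside 4.48%, and 1, Adora2b, was called lower, beside 0.57%. At any size 7 of 9 were lower and 0 higher, beside 48.5% of all tested genes in either direction. The medians of the 9 were -0.14 in control and -0.20 with LPS+ATP, where those of all tested genes were 0.09 and 0.11. For the interaction, the difference between the genotypes in their response, 0 were called higher, beside 0.721%, and 1 lower, beside 1.43%. At any size 1 was higher and 2 lower, beside 27.7%, and the median of the 9 was -0.09 against 0.02 for all tested genes. Median-ratio scaling moved the all-gene genotype medians by -0.12 in control and -0.15 with LPS+ATP, and the split of called genes from 760 higher and 87 lower to 597 and 128 and from 565 and 72 to 449 and 117.

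**Figure D2:**
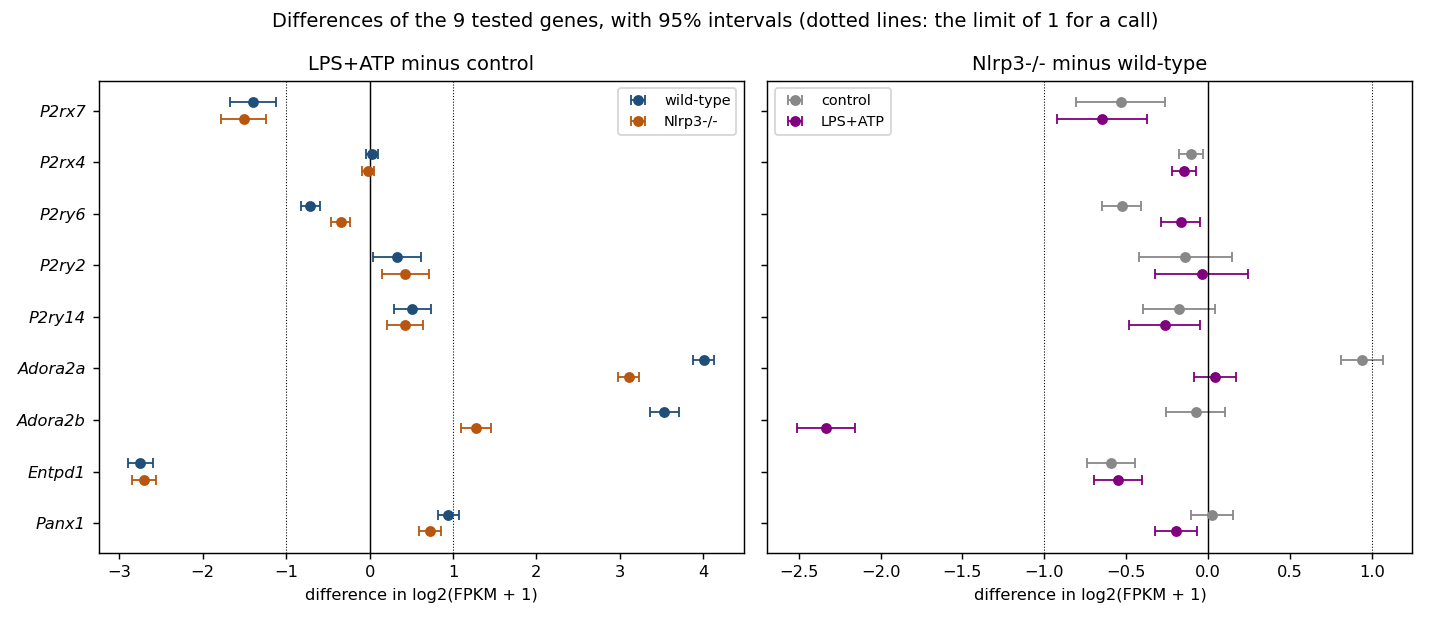
Differences in log2(FPKM + 1) of the 9 tested genes with 95% intervals from limma; the left panel gives LPS+ATP minus control in each genotype and the right panel Nlrp3-/- minus wild-type in each stimulation state. The right panel shows Adora2b alone beyond the limit of 1, at -2.33 with LPS+ATP, and Adora2a just inside it, at 0.94, in control.

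P2rx7, the ATP-gated channel upstream of the inflammasome, fell in both genotypes. Its 3 libraries were at 12.1, 12.3 and 18.1 FPKM in wild-type control and at 4.57, 5.0001 and 4.43 FPKM in wild-type LPS+ATP. In Nlrp3-/- cells they were at 9.20, 8.69 and 10.01 FPKM in control and at 2.69, 2.73 and 2.43 FPKM with LPS+ATP. The stimulated libraries lay below the control libraries in each genotype without overlap, and the Nlrp3-/- libraries lay below the wild-type libraries in each state. One wild-type control library, replicate 3, stood above the other 2. The group means fell 3.03-fold in wild-type and 3.56-fold in Nlrp3-/- cells, and limma gave -1.40 ± 0.12 (SE), adjusted p = 1.000e-06, and -1.51 ± 0.12 (SE), adjusted p = 6.132e-07. The genotype differences were -0.53 ± 0.12 (SE), adjusted p = 0.00403, in control, and -0.65 ± 0.12 (SE), adjusted p = 0.00112, with LPS+ATP; both were under the limit for a call, and the macrophage marker sum was lower in Nlrp3-/- libraries too, whose part in the result was not tested. Leaving out each library in turn kept the genotype difference in control between -0.63 and -0.36. The interaction was -0.11 with a 95% interval of -0.50 to 0.27. The annotated microRNA gene Mir8115 lies on the same strand within P2rx7 and shares 1.99% of its exon bases.

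P2rx4, the other P2X channel of macrophages and a neighbour of P2rx7 on the same chromosome, stayed within a narrow range. It was at 27.2, 27.2 and 27.9 FPKM in wild-type control and 28.7, 28.2 and 26.8 FPKM in wild-type LPS+ATP libraries, and at 25.5, 25.1 and 25.6 and 25.5, 25.1 and 24.8 FPKM in the corresponding Nlrp3-/- libraries. The stimulated and control libraries overlapped in each genotype. The stimulation difference was 0.02, 95% interval -0.05 to 0.10, in wild-type and -0.02, 95% interval -0.09 to 0.05, in Nlrp3-/- cells. Relative to the all-gene median it was positive: with median-ratio scaling it became 0.34 in wild-type and 0.26 in Nlrp3-/- cells. The Nlrp3-/- libraries lay below the wild-type libraries in both states, with differences of -0.11 in control (limma adjusted p = 0.0204) and -0.15 with LPS+ATP (adjusted p = 0.00302); the first lost significance in 2 of 21 alternative settings, with an adjusted p of 0.0688 without wild-type control replicate 3. The interaction was -0.04, 95% interval -0.14 to 0.06. Within a library, P2rx4 was 1.55 to 2.25 times P2rx7 in wild-type control, 5.65 to 6.28 times in wild-type LPS+ATP, 2.56 to 2.89 times in Nlrp3-/- control and 9.18 to 10.2 times in Nlrp3-/- LPS+ATP.

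Among the P2Y receptors, P2ry6, the receptor of UDP, was the most abundant and fell with stimulation. It was at 43.99, 46.5 and 43.9 FPKM in wild-type control and at 26.5, 27.3 and 27.1 FPKM in wild-type LPS+ATP libraries. In Nlrp3-/- cells it was at 30.4, 31.6 and 30.2 FPKM in control and 24.8, 25.5 and 21.6 FPKM with LPS+ATP. No groups overlapped within a genotype or within a state. The fall was 1.66-fold in the group means of wild-type cells (-0.71 ± 0.05 (SE), adjusted p = 2.682e-07 in limma) and 1.28-fold in Nlrp3-/- cells (-0.35 ± 0.05 (SE), adjusted p = 0.000127), both under the limit for a call. Relative to the all-gene median the second was small: under median-ratio scaling it was -0.07 with an adjusted p of 0.325. The genotype difference was -0.53 ± 0.05 (SE), adjusted p = 8.888e-06, in control and -0.17 ± 0.05 (SE), adjusted p = 0.0244, with LPS+ATP, where the adjusted p was 0.0673 without Nlrp3-/- LPS+ATP replicate 3. In both states the macrophage marker sum was lower in Nlrp3-/- libraries as well, and its part in this result was not tested. The interaction was 0.36 ± 0.08 (SE), adjusted p = 0.00486.

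P2ry2, a receptor of ATP and UTP, was low in all groups. It was at 3.72, 4.20 and 2.84 FPKM in wild-type control, 4.21, 5.12 and 4.84 in wild-type LPS+ATP, 2.63, 3.23 and 3.59 in Nlrp3-/- control and 4.05, 5.30 and 4.37 in Nlrp3-/- LPS+ATP libraries. The stimulated libraries lay above the control libraries in each genotype, though in wild-type cells the highest control and the lowest stimulated library were at 4.20 and 4.21 FPKM, and the genotypes overlapped in each state. Limma gave 0.33 ± 0.13 (SE), adjusted p = 0.0365, in wild-type, a result that lost its significance in 5 of 20 alternative settings (adjusted p = 0.154 without wild-type control replicate 3), and 0.43 ± 0.13 (SE), adjusted p = 0.0108, in Nlrp3-/- cells. The genotype differences were -0.14, 95% interval -0.42 to 0.14, and -0.04, 95% interval -0.32 to 0.24, and the interaction was 0.10, 95% interval -0.30 to 0.50.

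P2ry14, the receptor of UDP-glucose, was at 2.14, 1.96 and 2.46 FPKM in wild-type control and 4.26, 3.29 and 3.16 FPKM in wild-type LPS+ATP libraries. The Nlrp3-/- libraries were at 1.83, 2.01 and 1.61 FPKM in control and 2.81, 2.52 and 3.01 FPKM with LPS+ATP. It rose without overlap in both genotypes, by 0.51 ± 0.10 (SE), adjusted p = 0.000591, and 0.43 ± 0.10 (SE), adjusted p = 0.00233, below the limit for a call. With LPS+ATP it was lower in Nlrp3-/- libraries, with a difference of -0.27 (limma adjusted p = 0.0445), which lost significance in 10 of 20 alternative settings (adjusted p = 0.171 without wild-type LPS+ATP replicate 1). In control the difference was -0.18, 95% interval -0.40 to 0.04, with overlapping libraries, and the interaction was -0.09, 95% interval -0.40 to 0.22. The gene lies inside Med12l on the opposite strand, with no shared exon bases, and Med12l was at most 0.195 FPKM on average in any group.

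Of the adenosine receptors, Adora2a and Adora2b gave the largest rises of the set. Adora2a, the A2a receptor, was at 0.756, 0.820 and 0.681 FPKM in wild-type control and at 28.2, 25.6 and 27.5 FPKM in wild-type LPS+ATP libraries. In Nlrp3-/- cells it was at 2.29, 2.17 and 2.62 FPKM in control and at 27.7, 28.7 and 27.3 FPKM with LPS+ATP. The stimulated libraries of the genotypes overlapped, whereas every Nlrp3-/- control library lay above every wild-type control library. The group means rose 36.02-fold in wild-type and 11.8-fold in Nlrp3-/- cells, and limma gave 4.00 ± 0.06 (SE), adjusted p = 1.875e-13, and 3.11 ± 0.06 (SE), adjusted p = 1.895e-12. These were the 101st and 129th largest rises of the 12622 tested genes.

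In control cells Adora2a was 3.14-fold higher in the Nlrp3-/- group mean (0.94 ± 0.06 (SE), adjusted p = 1.430e-07), just under the limit for a call. It passed that limit on scales that compress low values less, at 1.53 with a pseudocount of 0.1 and 1.34 in TPM, each library's FPKM rescaled to 1 common total. The neutrophil and fibroblast marker sums were also higher in Nlrp3-/- control libraries, and their part in the result was not tested. With LPS+ATP the genotype difference was 0.04, with a 95% interval of -0.09 to 0.17 and an adjusted p of 0.604. The interaction was -0.90 ± 0.08 (SE), adjusted p = 1.708e-05, and it too passed the limit with the smaller pseudocount, at -1.49, and in TPM, at -1.28.

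Adora2b, the A2b receptor, which binds adenosine with lower affinity than A2a, was the 1 gene of the set called between genotypes after stimulation. It was at 1.92, 1.79 and 2.18 FPKM in wild-type control and at 2.08, 1.55 and 1.81 FPKM in Nlrp3-/- control libraries, which overlapped. With LPS+ATP it was at 31.5, 34.9 and 33.6 FPKM in wild-type and at 5.28, 6.25 and 5.94 FPKM in Nlrp3-/- libraries, far apart. Stimulated libraries lay above control libraries in both genotypes. The group means rose 16.97-fold in wild-type cells (3.53 ± 0.08 (SE), adjusted p = 7.127e-12 in limma) and 3.21-fold in Nlrp3-/- cells (1.28 ± 0.08 (SE), adjusted p = 6.969e-08). In control the genotype difference was -0.08 with a 95% interval of -0.26 to 0.10, and the adjusted p was 0.47.

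With LPS+ATP the Adora2b mean was 5.72-fold lower in Nlrp3-/- libraries, with a 95% interval of -2.51 to -2.15 around the log2 difference and an adjusted p of 1.901e-09. It was the 7th largest fall of the 12622 tested genes in that comparison and the 15th in the interaction, whose 95% interval was -2.51 to -2.001 (adjusted p = 2.599e-07). Leaving out each library in turn kept the difference with LPS+ATP between -2.38 and -2.27. In those libraries the macrophage marker sum was lower in Nlrp3-/- cells and the fibroblast and neutrophil sums were higher, by the values given above. Of the 7 macrophage marker entries, 4 were lower there at an adjusted p under 0.05 in limma and 0 higher. Of all tested genes, 48.5% passed that adjusted p in either direction. Csf1r did not differ (-0.02, adjusted p = 0.653). The 2 Itgam entries varied widely between replicates, with SEs of 0.49 and 0.45, so a difference in them could have been missed. The part of these markers in the result was not tested. Xist, the Y-linked genes and Nnt differed likewise between these libraries.

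Read within each library, which removes library scale, the order of Adora2a and Adora2b differed by genotype. Adora2b was 2.19 to 3.20 times Adora2a in wild-type control and 1.12 to 1.36 times in wild-type LPS+ATP libraries. In Nlrp3-/- cells it was 0.689 to 0.906 times Adora2a in control and 0.191 to 0.218 times with LPS+ATP. Adora2b was thus above Adora2a in all 6 wild-type libraries and below it in all 6 Nlrp3-/- libraries. All ratios between genes within a library given here were chosen after the values were seen and were not tested.

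Adora3, the A3 receptor, stayed under 1 FPKM in all 12 libraries and did not pass the low-value filter. It was at 0.886, 0.501 and 0.774 FPKM in wild-type control, 0.550, 0.298 and 0.492 in wild-type LPS+ATP, 0.602, 0.869 and 0.748 in Nlrp3-/- control and 0.530, 0.529 and 0.580 in Nlrp3-/- LPS+ATP libraries. The stimulated libraries lay below control in Nlrp3-/- cells and overlapped it in wild-type cells. In the fit without the filter, over 30133 genes, its limma differences were -0.25 with stimulation in wild-type (adjusted p = 0.084) and -0.17 in Nlrp3-/- cells (adjusted p = 0.244), and 0.02 and 0.10 between genotypes. It shares 20.9% of its exon bases with Tmigd3 on the same strand, so its value is uncertain.

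Entpd1, whose product CD39 removes phosphates from extracellular ATP and ADP, gave the largest fall of the set. It was at 47.5, 41.8 and 40.5 FPKM in wild-type control and at 5.29, 5.40 and 6.06 FPKM in wild-type LPS+ATP libraries. The Nlrp3-/- libraries had it at 29.3, 28.1 and 27.4 FPKM in control and 3.73, 3.25 and 3.50 FPKM with LPS+ATP. No 2 groups within a genotype or within a state overlapped. The group means fell 7.75-fold in wild-type and 8.09-fold in Nlrp3-/- cells, and limma gave -2.75 ± 0.07 (SE), adjusted p = 1.236e-11, and -2.70 ± 0.07 (SE), adjusted p = 1.889e-11. They were the 62nd and 35th largest falls of the 12622 tested genes. Genotype differences were -0.59 ± 0.07 (SE), adjusted p = 2.155e-05, in control and -0.55 ± 0.07 (SE), adjusted p = 4.306e-05, with LPS+ATP, under the limit for a call. The macrophage marker sum was lower in Nlrp3-/- libraries too, and its part in these differences was not tested. For Entpd1 the interaction was 0.04 with a 95% interval of -0.17 to 0.25. A processed pseudogene on the same strand, Gm8783, lies inside Entpd1 with no shared exon bases and was on average at 7.60 FPKM in wild-type control and 7.84 FPKM in wild-type LPS+ATP libraries. Within a library Entpd1 went from 1.45 to 1.75 times P2rx4 to 0.184 to 0.226 times with stimulation in wild-type cells, and from 1.07 to 1.15 times to 0.130 to 0.146 times in Nlrp3-/- cells.

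**Figure D3:**
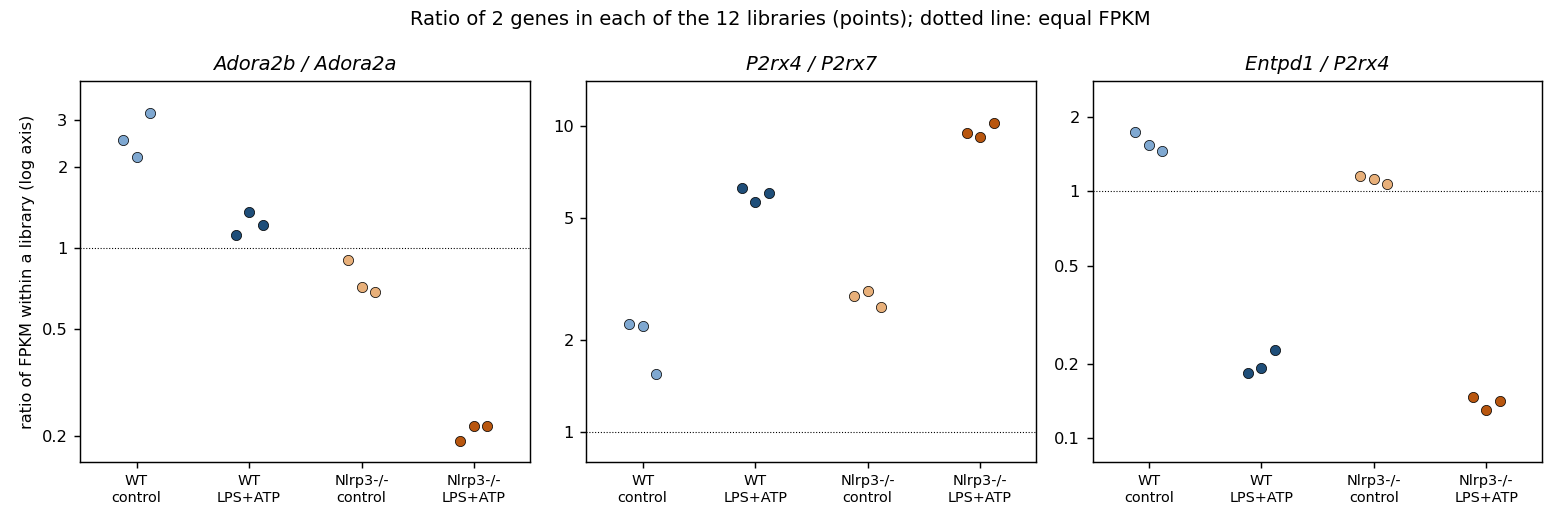
Ratio of FPKM of 2 genes within each of the 12 libraries (points), on log axes, with a dotted line at equal FPKM. Adora2b exceeded Adora2a in wild-type libraries only, P2rx4 over P2rx7 reached 9.18 to 10.2 in Nlrp3-/- LPS+ATP libraries, and Entpd1 went from above to below P2rx4 with stimulation in both genotypes.

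Panx1, the channel through which ATP leaves cells, rose with stimulation. It was at 5.02, 5.96 and 5.56 FPKM in wild-type control and at 10.97, 11.6 and 11.95 FPKM in wild-type LPS+ATP libraries. In Nlrp3-/- cells it was at 5.88, 5.58 and 5.35 FPKM in control and at 9.63, 10.1 and 10.01 FPKM with LPS+ATP. Stimulated libraries lay above control libraries in both genotypes, control libraries of the genotypes overlapped, and stimulated Nlrp3-/- libraries lay below stimulated wild-type libraries. The rise of the group means was 2.09-fold in wild-type cells (0.94 ± 0.06 (SE), adjusted p = 3.757e-08 in limma) and 1.77-fold in Nlrp3-/- cells (0.72 ± 0.06 (SE), adjusted p = 4.946e-07). The first was just under the limit for a call and passed it at 1.05 with a pseudocount of 0.1, 1.07 in TPM and 1.242 with median-ratio scaling. In control the genotype difference was 0.02, 95% interval -0.11 to 0.15. With LPS+ATP it was -0.20 ± 0.06 (SE), adjusted p = 0.0145, which lost significance in 2 of 21 alternative settings (adjusted p = 0.055 without wild-type LPS+ATP replicate 3), and the interaction was -0.22 (adjusted p = 0.0685).

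The patterns of 4 of the genes could be compared with those of all other tested genes, since their group means spanned at least 1 on the log2(FPKM + 1) scale. Over the 12 libraries, which form 4 groups and therefore share their group differences, the closest genes to Adora2a were Cxcl2, a neutrophil chemokine (Pearson's r = 0.9995), Pla2g16 and N4bp1, and 338 genes had r over 0.98. For Entpd1 they were Gng2 (r = 0.9993), a G protein subunit, Lipa, the lysosomal acid lipase, and Nceh1, a cholesterol ester hydrolase, with 368 genes over 0.98. For P2rx7 they were Otud1 (r = 0.987), Rnf130 and Rtfdc1, with 30 genes over 0.98. Adora2b had 16 such genes, led by Gm8818 (r = 0.991), Rnf225 (r = 0.990) and Tgm2, a transglutaminase (r = 0.990). Gm8818 averaged 0.0395 FPKM in wild-type control, 1.52 in wild-type LPS+ATP, 0.00741 in Nlrp3-/- control and 0.485 in Nlrp3-/- LPS+ATP libraries. Its mean exceeded 1 FPKM only where Adora2b was highest, so the filter may have set part of its likeness. Rnf225 averaged 0.0261 FPKM in wild-type control and 0.0553 FPKM in Nlrp3-/- control libraries. Tgm2 was on average at 49.6 FPKM in wild-type control, 130.2 in wild-type LPS+ATP, 51.0 in Nlrp3-/- control and 78.1 FPKM in Nlrp3-/- LPS+ATP libraries.

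The other nucleotide and adenosine receptors were mostly listed at levels too low for a test. Of 13, 5 were tested, and P2rx2, P2rx3, P2rx5, P2rx6, P2ry4, P2ry10, Gpr17 and Adora1 did not pass the filter, Adora1 being listed at 0 in every library. An exact 0 in this table need not mean no RNA, and this was not tested for any gene. The purine enzyme gene Pnp is listed at 0 in every library too. With stimulation 0 of 5 were called higher and 2 lower in each genotype, with medians of -0.35 in wild-type and -0.85 in Nlrp3-/- cells beside -0.25 and -0.24 for all tested genes. The shares of all tested genes called were 8.25% higher and 11.2% lower in wild-type and 6.64% and 8.21% in Nlrp3-/- cells. P2ry1, a receptor of ADP, fell in both genotypes, from 4.06 ± 0.545 to 1.26 ± 0.174 FPKM (SD, n = 3) in wild-type (-1.16 ± 0.09 (SE), adjusted p = 4.140e-07) and from 2.70 ± 0.242 to 0.776 ± 0.114 FPKM in Nlrp3-/- cells (-1.06 ± 0.09 (SE), adjusted p = 1.117e-06). P2ry12, another ADP receptor, was called lower in wild-type cells (-1.08 ± 0.13 (SE), adjusted p = 1.606e-05) and fell by less than the limit in Nlrp3-/- cells (-0.85 ± 0.13 (SE), adjusted p = 0.000133). P2rx1, an ATP-gated channel of platelets and myeloid cells, was at 1.01 ± 0.126, 1.08 ± 0.103, 2.52 ± 0.0345 and 0.738 ± 0.255 FPKM (SD, n = 3) in the control and LPS+ATP libraries of wild-type and then of Nlrp3-/- cells. It was the 1 gene of this list called in the interaction, at -1.08 ± 0.13 (SE), adjusted p = 0.000143, beside 1.43% of all tested genes called lower. In the same comparison 3 of 4 megakaryocyte markers and 2 of 5 tested neutrophil markers, Mpo at -3.58 and Elane at -2.72, were called lower. With stimulation in wild-type cells P2rx1 was at 0.05 (adjusted p = 0.638). There 2 of the 4 megakaryocyte markers were called higher and 3 of the 5 neutrophil markers lower. Between genotypes, 47.8% of all tested genes in control and 48.5% with LPS+ATP had an adjusted p under 0.05 in either direction. All 5 tested neutrophil markers were higher in Nlrp3-/- libraries in both states at that adjusted p. P2rx1 was higher there in control (0.81) but lower with LPS+ATP (-0.27, adjusted p = 0.036). The part of these markers in the result was not tested. P2ry1, P2ry12 and P2rx1 are low genes, and their stimulation calls were lost under median-ratio scaling, while the P2rx1 interaction was -0.99 without Nlrp3-/- LPS+ATP replicate 1. Between genotypes 0 of 5 were called in either state, with medians of -0.43 in control and -0.27 with LPS+ATP. The shares of all tested genes called were 6.02% higher and 0.689% lower in control and 4.48% and 0.57% with LPS+ATP.

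Of 10 other enzymes of nucleotides and adenosine, 5 were tested; Entpd2, Entpd3, Entpd8, Nt5e and Pnp did not pass the filter. Nt5e, whose product CD73 makes adenosine from AMP, was at most 0.961 FPKM in any library, with means of 0.187 ± 0.0527 FPKM (SD, n = 3) in wild-type control and 0.880 ± 0.110 FPKM in Nlrp3-/- LPS+ATP. Pnp was listed at 0 in every library. With stimulation all 5 tested enzymes were lower at an adjusted p under 0.05 in each genotype and 2 were called lower, with medians of -0.76 and -0.82. Of all tested genes, 76.4% in wild-type and 74.3% in Nlrp3-/- cells passed that adjusted p in either direction, and 11.2% and 8.21% were called lower. Enpp3, 1 of the 5 tested enzymes, reached 1 FPKM only in Nlrp3-/- control libraries and passed the filter only through them. Its fall in Nlrp3-/- cells, -0.82, is the median of the 5 there and was fixed in part by the filter. In wild-type cells Enpp3 went from a mean of 0.343 to 0.104 FPKM. Adk, adenosine kinase, which returns adenosine to AMP inside the cell, fell from 3.20 ± 0.0573 to 0.598 ± 0.0599 FPKM (SD, n = 3) in wild-type (-1.39 ± 0.05 (SE), adjusted p = 4.483e-10) and from 2.99 ± 0.149 to 0.937 ± 0.0503 FPKM in Nlrp3-/- cells (-1.04 ± 0.05 (SE), adjusted p = 8.028e-09), the second being -0.84 under median-ratio scaling. Enpp1, a pyrophosphatase that splits extracellular ATP, was called lower in wild-type cells (-1.04 ± 0.04 (SE), adjusted p = 5.350e-10), though not under median-ratio scaling (-0.82). Alpl, the tissue-nonspecific alkaline phosphatase, was called higher in Nlrp3-/- cells in both states, at 4.07 ± 0.283 against 13.8 ± 0.264 FPKM (SD, n = 3) in control (1.55 ± 0.06 (SE), adjusted p = 3.562e-09) and 2.03 ± 0.130 against 5.24 ± 0.425 FPKM with LPS+ATP (1.04 ± 0.06 (SE), adjusted p = 1.199e-07), and it was called lower with stimulation in Nlrp3-/- cells (-1.25). The Alpl calls with LPS+ATP and with stimulation were lost under median-ratio scaling, at 0.91 and -0.98. Fibroblast and neutrophil markers were higher in the same Nlrp3-/- libraries, and their part in this result was not tested. In the genotype comparisons 1 of 5 was called higher and 0 lower in each state, with a median of 0.70 in both. The shares of all tested genes called were 6.02% higher and 0.689% lower in control and 4.48% and 0.57% with LPS+ATP.

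Of 11 other ATP release proteins and nucleoside transporters, 8 were tested, and Panx2, Panx3 and Slc29a2 did not pass the filter. In wild-type cells 2 were called higher and 3 lower with stimulation, and in Nlrp3-/- cells 2 higher and 1 lower, with medians of -0.43 and -0.20, where 8.25% and 11.2% of all tested genes were called higher and lower in wild-type and 6.64% and 8.21% in Nlrp3-/- cells. Calhm6, a large-pore channel gene of the CALHM family, gave the largest rise, from 3.17 ± 0.398 to 43.6 ± 2.11 FPKM (SD, n = 3) in wild-type (3.42 ± 0.08 (SE), adjusted p = 1.135e-11) and from 2.34 ± 0.288 to 36.02 ± 2.21 FPKM in Nlrp3-/- cells (3.47 ± 0.08 (SE), adjusted p = 1.310e-11). Slc28a2, a concentrative nucleoside transporter that takes up adenosine, rose from 7.77 ± 0.424 to 45.1 ± 1.12 FPKM in wild-type (2.39 ± 0.08 (SE), adjusted p = 1.425e-10) and from 4.90 ± 0.761 to 16.4 ± 0.629 FPKM in Nlrp3-/- cells (1.56 ± 0.08 (SE), adjusted p = 8.587e-09), and with LPS+ATP it was lower in Nlrp3-/- libraries (-1.41 ± 0.08 (SE), adjusted p = 7.235e-08). Slc29a1, the equilibrative nucleoside transporter ENT1, fell from 18.4 ± 0.617 to 7.83 ± 0.549 FPKM in wild-type (-1.13 ± 0.06 (SE), adjusted p = 9.479e-09; -0.83 under median-ratio scaling) and was at 29.7 ± 0.223 and 25.8 ± 2.03 FPKM in Nlrp3-/- control and LPS+ATP libraries. With LPS+ATP Slc29a1 was called higher in Nlrp3-/- cells (1.60 ± 0.06 (SE), adjusted p = 3.057e-09), so that the transporter genes Slc28a2 and Slc29a1 differed between genotypes in opposite directions. The fibroblast and neutrophil marker sums were higher in these stimulated Nlrp3-/- libraries and the macrophage sum lower, and their part in these results was not tested. Gja1, the gap junction protein connexin 43, was called higher in Nlrp3-/- control libraries (1.52 ± 0.20 (SE), adjusted p = 7.200e-05), at 22.02 ± 7.73 against 6.66 ± 0.280 FPKM, where its 3 libraries ran from 13.1 to 26.6 FPKM. With LPS+ATP it was higher by less than the limit (0.97 ± 0.20 (SE), adjusted p = 0.00189), at 17.96 ± 0.349 against 8.65 ± 0.266 FPKM. Gja1 is also expressed by fibroblasts, whose markers were higher in Nlrp3-/- libraries in both states, and their part in this result was not tested. Between genotypes 1 of 8 was called higher and 0 lower in control and 1 higher and 1 lower with LPS+ATP, with medians of -0.10 and -0.03, and 0 of 8 were called in the interaction. The shares of all tested genes called were 6.02% higher and 0.689% lower in control and 4.48% and 0.57% with LPS+ATP. In the interaction they were 0.721% and 1.43%.

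Of 20 adenylyl cyclases and cAMP phosphodiesterases, the enzymes that make and degrade the second messenger of the A2 receptors, 12 were tested, and Adcy1, Adcy4, Adcy5, Adcy8, Adcy10, Pde3a, Pde4c and Pde4d did not pass the filter. With stimulation 1 was called higher and 2 lower in wild-type cells, and 1 higher and 1 lower in Nlrp3-/- cells, with medians of -0.51 and -0.45. These counts are near the shares of all tested genes called, which were 8.25% higher and 11.2% lower in wild-type and 6.64% and 8.21% in Nlrp3-/- cells. Pde4b, a cAMP phosphodiesterase, rose from 1.08 ± 0.0425 to 4.77 ± 0.115 FPKM (SD, n = 3) in wild-type (1.47 ± 0.05 (SE), adjusted p = 9.300e-11) and from 1.76 ± 0.0492 to 6.70 ± 0.290 FPKM in Nlrp3-/- cells (1.48 ± 0.05 (SE), adjusted p = 1.230e-10), an interaction of 0.01 with a 95% interval of -0.14 to 0.15. Adcy9, an adenylyl cyclase, fell from 5.13 ± 0.236 to 1.10 ± 0.0805 FPKM in wild-type (-1.55 ± 0.08 (SE), adjusted p = 6.132e-09) and from 3.51 ± 0.0909 to 1.19 ± 0.249 FPKM in Nlrp3-/- cells (-1.05 ± 0.08 (SE), adjusted p = 2.414e-07), the second call being lost under median-ratio scaling (-0.84) and without Nlrp3-/- LPS+ATP replicate 3 (-0.96). Adcy3 and Adcy6 were called higher in Nlrp3-/- control libraries (1.245 ± 0.06 (SE), adjusted p = 1.675e-08, and 1.30 ± 0.06 (SE), adjusted p = 8.122e-09). Adcy6 was at 4.21 ± 0.140 FPKM in Nlrp3-/- against 1.11 ± 0.0649 FPKM in wild-type control libraries (SD, n = 3). With LPS+ATP both were higher in Nlrp3-/- cells by less than the limit, at 0.95 (adjusted p = 1.860e-07) and 0.81 (adjusted p = 4.475e-07). The fibroblast, neutrophil and endothelial marker sums were higher in Nlrp3-/- libraries in both states, and their part in these results was not tested. Between genotypes 2 of 12 were called higher in control and 0 with LPS+ATP, 0 were called lower, and the medians were 0.17 and 0.22. The shares of all tested genes called were 6.02% higher and 0.689% lower in control and 4.48% and 0.57% with LPS+ATP.

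**Figure D4:**
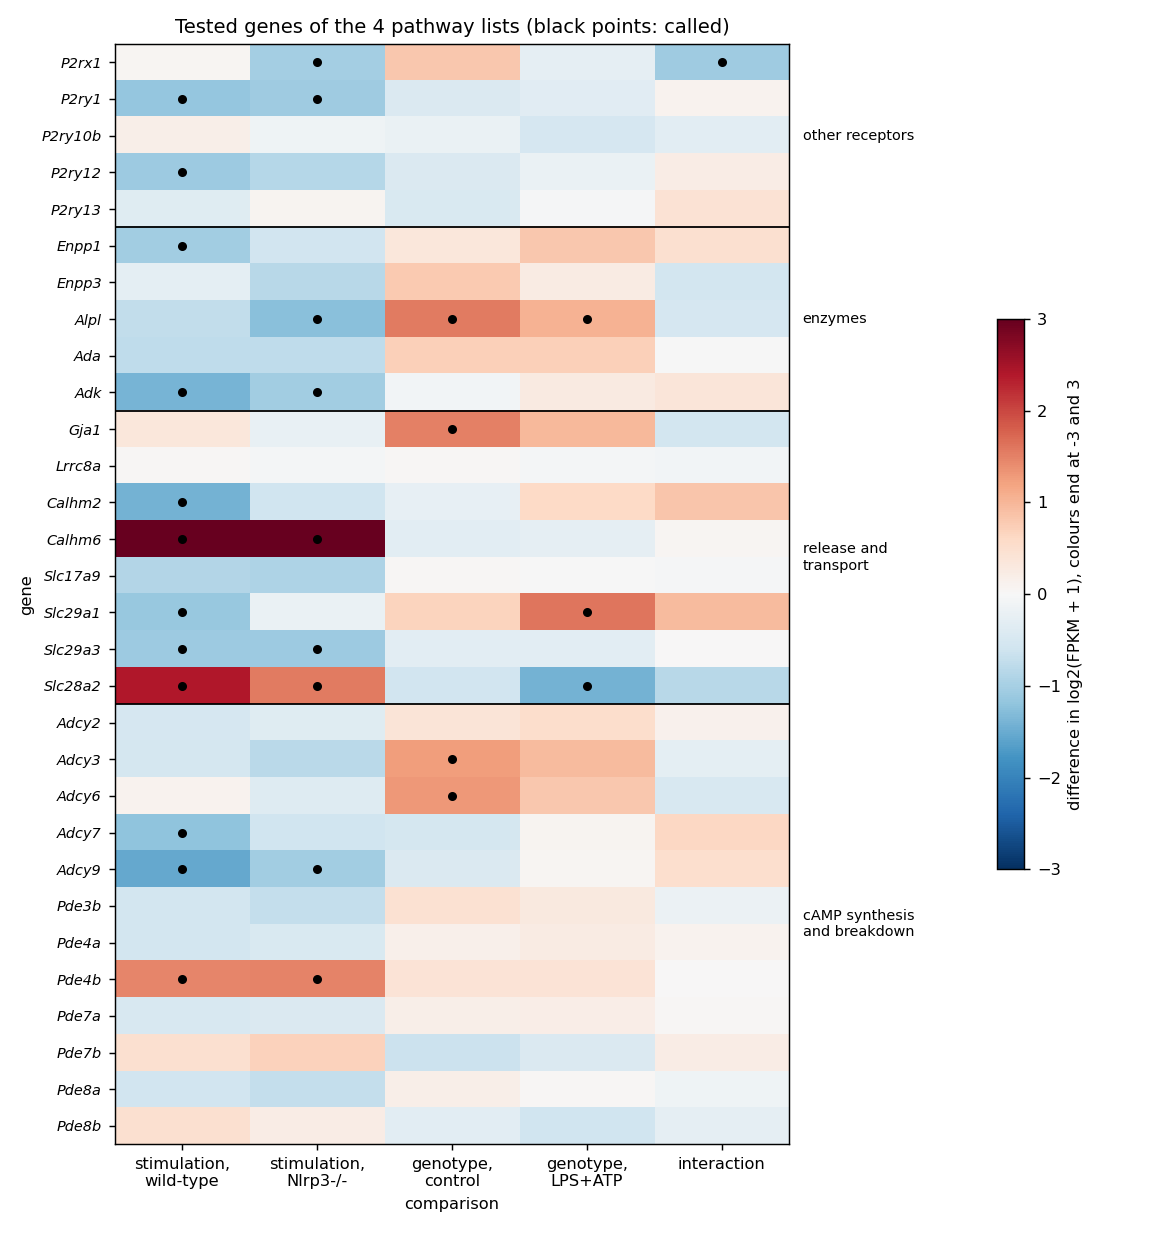
Differences in log2(FPKM + 1) of all tested genes of the 4 lists (rows) in the 5 comparisons (columns), with colours from -3 (blue) to 3 (red) and black points for called genes. Calhm6 and Slc28a2 rose in both genotypes, Adk and P2ry1 fell in both, and Alpl was higher in Nlrp3-/- cells in both states.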

How the data were processed

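RNA of 12 BMDM libraries, 3 in each of 4 groups, was sequenced with an Illumina TruSeq kit. The authors deposited 1 table of FPKM per gene and library. The submitters' processing notes name GRCm39 and DESeq2 1.24.0; the aligner and the counter are not given in the sources used here. FPKM holds no read counts, so no count test was run and the depth in reads is unknown. All value columns were used.

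Limma 3.58.1 in R 4.3.3 was run on log2(FPKM + 1) for the genes that reached 1 FPKM in 3 or more libraries, with 1 mean per group over all 12 libraries, a variance trend and Benjamini-Hochberg adjustment. A call needed an adjusted p under 0.05 and an absolute difference of at least 1. Python 3.11.15, numpy 2.4.6, pandas 2.3.3 and matplotlib 3.10.9 were used for the rest.

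The 10 genes and the lists were chosen with earlier results of these data known. All 10 are named; from each other list, the called genes were named, up to the 4 with the largest difference, and every gene that did not pass the filter. The most alike genes were the 3 with the highest Pearson's r. P2ry10b and Calhm6 were matched through RefSeq synonyms, overlapping genes came from GENCODE M21, and promoter coordinates are RefSeq's on GRCm38.p6, not the submitters' build. Groups and replicate numbers came from the titles. Alternatives were a pseudocount of 0.1, no filter, FPKM of at least 5, TPM, median-ratio scaling, no trend, a replicate block, only the groups compared, no fold limit and leaving out each library.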

Additional observations from a re-analysis of the deposited data

Results flagged for a closer look

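In the genes below, the response to LPS+ATP differed between wild-type and Nlrp3-/- cells by limma's test of the interaction of genotype and stimulation, with Benjamini-Hochberg adjustment over 12622 genes. Among the 10 genes, Adora2b had an interaction of -2.25 (adjusted p = 2.599e-07), with overlapping control levels and a lower stimulated level in Nlrp3-/- libraries. Adora2a had an interaction of -0.90 (adjusted p = 1.708e-05), with overlapping stimulated levels and a control level that was higher in Nlrp3-/- libraries. P2ry6 had one of 0.36 (adjusted p = 0.00486), its fall being smaller in Nlrp3-/- cells.

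In the genes named from the other lists, P2rx1 had an interaction of -1.08 (adjusted p = 0.000143), Slc28a2 of -0.83 (adjusted p = 0.000238) and Slc29a1 of 0.94 (adjusted p = 1.290e-05). Among the enzymes, Alpl had -0.51 (adjusted p = 0.00123), Adk 0.35 (adjusted p = 0.00431) and Enpp1 0.47 (adjusted p = 0.000104). Among the adenylyl cyclases, Adcy9 had 0.50 (adjusted p = 0.00603), Adcy6 -0.49 (adjusted p = 0.00102) and Adcy3 -0.29 (adjusted p = 0.0244). Of all tested genes, 27.7% passed this test at an adjusted p under 0.05, so these genes are not set apart by passing it. The sex, the origin and the marker levels of the libraries differed with genotype as well, and their part in these interactions was not tested.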

How the results depend on the processing

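Of the 10 genes, 4 were called with stimulation in wild-type cells, 4 in Nlrp3-/- cells, 0 between genotypes in control, 1 with LPS+ATP and 1 in the interaction. Leaving out each library in turn gave 4 to 4, 4 to 4, 0 to 0, 1 to 1 and 1 to 1. A pseudocount of 0.1 and TPM each gave 1 for genotype in control and 2 for the interaction, Adora2a being added. With no fold limit the counts were 8, 8, 5, 7 and 3. Signs turned only for differences near 0. With median-ratio scaling P2rx4 with stimulation in Nlrp3-/- cells became 0.26 (0.044 in TPM), Panx1 between control genotypes -0.11 and Adora2a between stimulated genotypes -0.14. Leaving out 1 library moved Panx1 between control genotypes from -0.034 (without wild-type control replicate 1) to 0.071, with -0.0089 without Nlrp3-/- control replicate 1, and P2ry2 between stimulated genotypes from -0.13 to 0.027 (without Nlrp3-/- LPS+ATP replicate 1), with 0.0086 without wild-type LPS+ATP replicate 2. In the interaction it moved P2ry14 from -0.15 to 0.017 (without wild-type LPS+ATP replicate 1) and Entpd1 from -0.023 (without wild-type control replicate 1) to 0.095; Entpd1 was -0.051 with a pseudocount of 0.1 and -0.014 in TPM. The cause of these turns was not tested. Of the differences under 1, P2rx4 between control genotypes lost an adjusted p under 0.05 in 2 of 21 settings, P2ry6 between stimulated genotypes in 5 of 21 and with stimulation in Nlrp3-/- cells in 1 of 21. The settings were also run for the genes named from the other lists, in the comparisons where they were called. Over all of these, 1456 values stayed on their side of the threshold or moved little. Another 28 became stronger, 14 weaker and 12 changed sign, and 9 counts of called genes moved. All 14 weaker ones were genes of the other lists, and none was among the 10 genes. The stronger ones include differences that passed only because the fold limit was removed, with no change in value.

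Over all tested genes, the calls were 2452, 1874, 847, 637 and 271 in the 5 comparisons. With a pseudocount of 0.1 they were 3702, 2847, 1428, 1406 and 634, and in TPM 3657, 2933, 1597, 1327 and 605. With FPKM of at least 5, which tests fewer genes, 515 were called between control genotypes. The replicate block gave 2453, 1876, 847, 636 and 268 and left the counts of the 10 genes at 4, 4, 0, 1 and 1. Libraries of the same number in different groups did not deviate together (18 pairs, r from -0.057 to 0.053), and 3 of 12 libraries correlated best with their own number, so the numbers were not taken as pairs. Without read counts, how far depth limits the genes under 1 FPKM could not be computed.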
